A study of Rattus norvegicus with 16 samples.

Results

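The genes described here encode 7 subunits of the ionotropic glutamate receptors: Gria1, Gria2, Gria3 and Gria4 of the AMPA receptor, and Grin1, Grin2a and Grin2b of the NMDA receptor. They were chosen as a family, by Ensembl identifier and with earlier results of these data known, and are 7 of the 32883 genes in the count table. Reads were counted in CA1, CA2, CA3 and dentate gyrus (DG) of 4 male Wistar rats aged 3 months, with no treatment or transgene, by total RNA-seq of layers cut out with a laser (LCM). The pyramidal layer was taken from each CA subfield and the granular layer from DG, as outlined by a brain atlas on stained sections. A library therefore holds the neurons of the layer together with any glia, interneurons and neurites caught in the same cut. The 4 subfields came from the same rats. The replicate number stands for the rat, except in the repeated libraries of CA2 and DG described below.

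AMPA and NMDA receptors are tetramers that open a cation channel when glutamate binds. AMPA receptors carry most of the fast excitatory current, and a channel that lacks an edited GRIA2 subunit lets calcium through. NMDA receptors need the obligatory GRIN1 subunit, and the GRIN2 subunits set how long the channel stays open. In the hippocampus both receptor types are known for their part in synaptic plasticity, above all at the CA3 to CA1 synapse.

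RefSeq's promoter table, on build GRCr8, held the bases before the start of 2 of the 7 genes. Both are shown, and the other members could not be. Gria4 had the largest fold difference of the members, and Grin1 differed from the other members in the order of the subfields. Each run is the 250 bases before the annotated start, 5′ to 3′ on the gene's strand. Capitals mark matches to CAGCTG, a form of the E-box, and other forms of the E-box were not searched.
Gria4, chr8:10319882-10320131, minus strand: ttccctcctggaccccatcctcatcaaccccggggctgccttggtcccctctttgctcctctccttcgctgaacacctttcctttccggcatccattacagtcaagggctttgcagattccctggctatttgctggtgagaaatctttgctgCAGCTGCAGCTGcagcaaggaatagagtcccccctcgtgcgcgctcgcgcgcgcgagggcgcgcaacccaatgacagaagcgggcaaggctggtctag
Grin1, chr3:28528755-28529004, minus strand: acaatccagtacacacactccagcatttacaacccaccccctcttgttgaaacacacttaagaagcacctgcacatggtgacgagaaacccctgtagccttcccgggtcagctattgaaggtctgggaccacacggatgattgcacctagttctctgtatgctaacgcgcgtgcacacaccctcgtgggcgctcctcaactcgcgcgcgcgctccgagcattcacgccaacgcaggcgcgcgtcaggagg
The Gria4 window held 2 adjoining matches to CAGCTG, at -98 and -92 from the start, and the Grin1 window held 0. The same letters, which read alike on both strands, were present in 11.97% of the 33469 promoter windows in the table. The GC box GGGCGG, searched on both strands like all motifs here, was in neither window and in 30.5% of all windows. Neither window held the TATA box TATAAA, which was in 12.9% of all. Nor did they hold the cAMP response element TGACGTCA, found in 1.59%. GC content was 59.6% for Gria4 and 57.6% for Grin1, beside a median of 51.2% over all windows. These matches are a description of letters only.

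The 16 libraries held between 3216512 and 11933279 counts. Replicates 2 and 4 of CA2 differed by sampling noise alone over the genes (chi-square per degree of freedom 1.0002), and replicates 2 and 4 of DG by little more (1.04), against 2.95 to 44.9 for the other 22 pairs within a subfield. Each of these pairs was summed and counted as 1 library, which left 4 libraries of CA1, 3 of CA2, 4 of CA3 and 3 of DG. Which rat such a sum came from cannot be told from the counts. Of 16 subfield markers, 7 could be paired with an identifier. Wfs1 was highest in CA1, Amigo2 and Cacng5 in CA2, and Prox1, C1ql2 and Dsp in DG, as their labels say. No CA3 marker could be checked. The pairing used symbols that mostly belong to genes the study picked on these libraries as subfield markers. This order is therefore no independent check of the cuts. Levels are CPM, a count divided by its library's TMM-scaled total. Wfs1 stood at 610.4 to 776 CPM in CA1, and replicate 2 of CA3 held 106 CPM against 8.65 to 13.8 CPM in the other CA3 libraries. CA2 libraries held 53.6 to 134 CPM of Wfs1. Markers of interneurons, glia and endothelium were not analysed here, since 0 of 37 could be paired with an identifier. In such layers fewer cells of a type and less RNA per cell cannot be told apart.

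CA1 had the highest mean level of 6 of the 7 subunits, and the exception was Grin1, which was highest in CA2. These are ranks of means, and some neighbours in them were not told apart by the test below. CA1 against DG in Gria1 and Gria4, and CA2 against CA1 and CA3 in Grin1, were among those. The share of all genes with their highest mean in CA1 is not given here. CA3 had the lowest mean of Gria1, Gria3, Gria4, Grin2a and Grin2b, while DG had the lowest of Gria2 and Grin1. Since gene lengths were not used, these levels compare subfields for 1 gene and not 1 gene with another. All 7 genes passed the filter of more than 10 counts summed over the libraries.

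**Figure D1:**
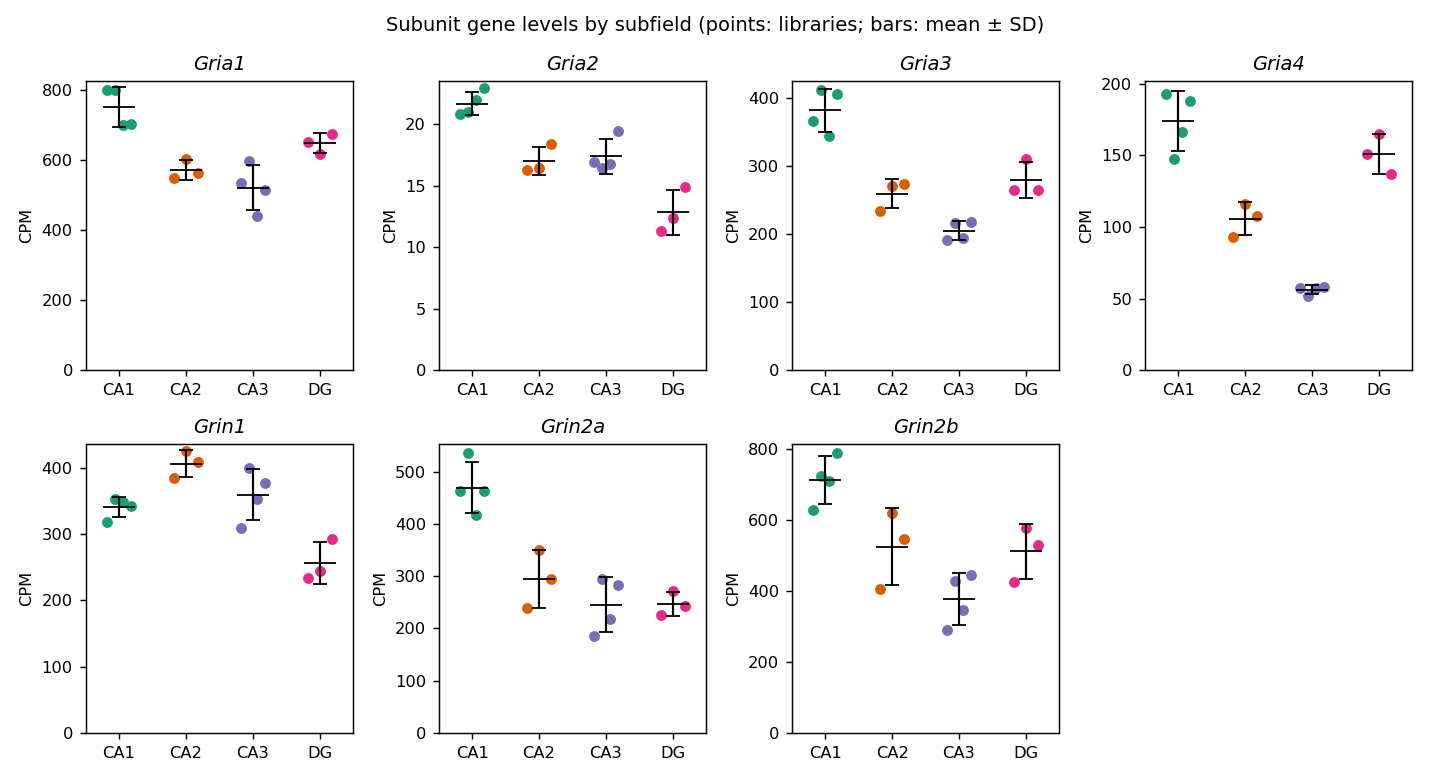
Level of each subunit gene (CPM, linear axis from 0, own scale in each panel) in CA1, CA2, CA3 and DG. Points are the 14 libraries after summing and black bars the mean ± SD. All 4 CA1 libraries lie above all CA2 and CA3 libraries except for Grin1, and Gria4 in CA3 is a tight group between 51.7 and 58.3 CPM. The share of all genes with such a gap is not given here.

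A gene was called different between a pair of subfields where edgeR's quasi-likelihood test over 17174 genes gave it a Benjamini-Hochberg adjusted p below 0.05. Of the 42 contrasts, made of 7 genes in 6 comparisons, 25 were called. Comparisons with a subfield in common share its libraries and are not independent. The shares over all genes given below include genes with few counts. Under edgeR's stricter count filter (filterByExpr), 2537 of 13523 genes were called in CA1vsCA2, against 2458 of 17174 here. In CA3vsDG that filter gave 6697 of 13523, against 6911 of 17174.

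In CA1vsCA2, 4 of 7 subunits were called, all higher in CA1, where 14.3% of all genes were called, 6.31% higher in CA1 and 8.0% higher in CA2. Their median log2 fold change was 0.44, beside -0.01 over all genes. In CA1vsCA3, 5 of 7 were called and all were higher in CA1, beside 24.8% of all genes, 12.1% higher in CA1 and 12.7% higher in CA3. Here the median over the subunits was 0.90, the largest of the 6 comparisons. In CA2vsCA3, 2 of 7 were called, both higher in CA2, beside 7.65% of all genes, with 4.16% higher in CA2 and 3.48% higher in CA3.

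Against the granular layer the direction of the called subunits was divided for CA2 and CA3 but not for CA1. In CA1vsDG, 5 of 7 subunits were called and all were higher in CA1, beside 29.4% of all genes, 15.1% higher in CA1 and 14.2% higher in DG. In CA2vsDG, 2 subunits were called higher in CA2 and 1 higher in DG, beside 35.4% of all genes, 18.9% higher in CA2 and 16.5% higher in DG. The median size of the difference, regardless of sign, was 0.25 on the log2 scale for the subunits and 0.48 over all genes in that comparison. In CA3vsDG, 2 subunits were called higher in CA3 and 4 higher in DG, beside 40.2% of all genes, 20.6% higher in CA3 and 19.7% higher in DG. The subunits' median size there, 0.44, was below the 0.49 over all genes.

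**Figure D2:**
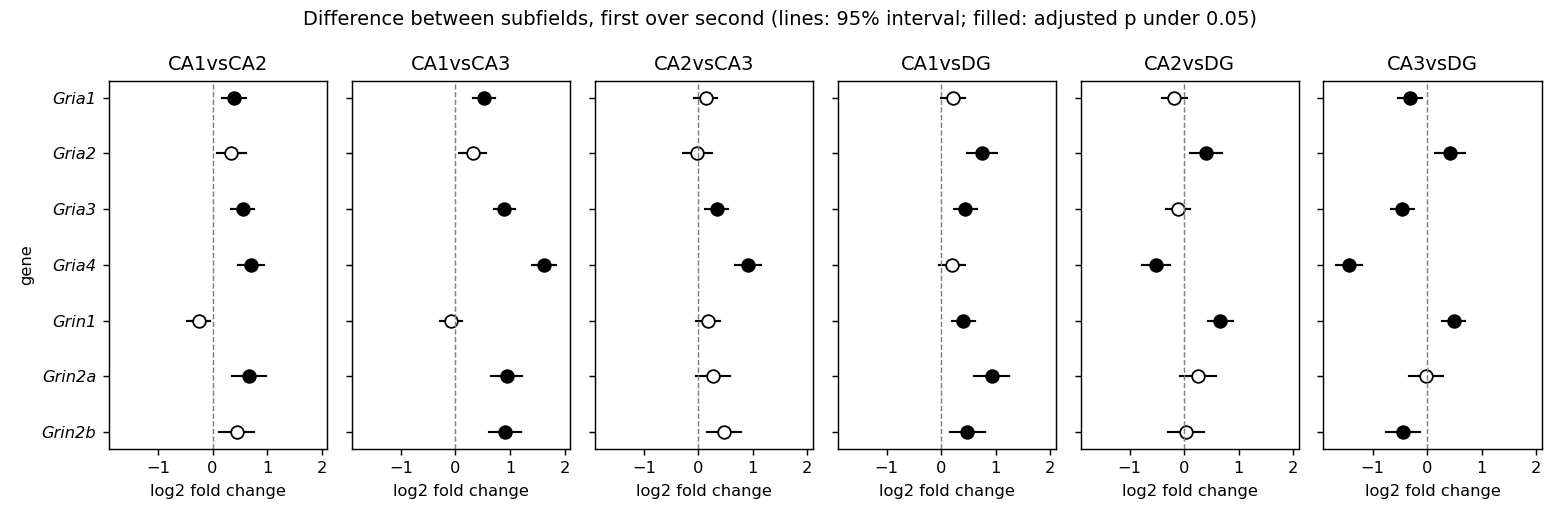
Log2 fold change of each subunit gene (rows) in the 6 comparisons (panels), as the first subfield over the second, so that points right of the dashed line are higher in the first. Lines are 95% intervals of the edgeR fit, and filled points have an adjusted p under 0.05. Gria4 is farthest from 0, at 1.63 in CA1vsCA3 and -1.43 in CA3vsDG.

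Gria1 (ENSRNOG00000045816) encodes a main AMPA receptor subunit of principal neurons, whose insertion at synapses accompanies long-term potentiation. It stood at 801, 800.5, 699.5 and 705 CPM in CA1 replicates 1 to 4 and at 534, 599, 441 and 515 CPM in CA3. In CA2 it stood at 549 CPM in replicate 1, 604 in the sum of replicates 2 and 4 and 564 in replicate 3, and in DG at 654, 617 and 674 CPM in the same order. No CA2, CA3 or DG library reached the lowest CA1 library, and no CA2 or CA3 library reached the lowest DG library. The means ± SD were 751 ± 56.8 in CA1 (n = 4), 648 ± 28.7 in DG (n = 3), 572 ± 28.3 in CA2 (n = 3) and 522 ± 64.9 CPM in CA3 (n = 4). Gria1 was 1.44-fold higher in CA1 than in CA3 (log2 fold change 0.53, SE 0.09, edgeR adjusted p = 0.000244). It was 1.31-fold higher in CA1 than in CA2 (log2 0.39, SE 0.10, adjusted p = 0.0113), which became 0.057 without CA2 replicate 3. The level was lower in CA3 than in DG (log2 -0.31, SE 0.10, adjusted p = 0.0182). Its adjusted p in edgeR was 0.0535 without CA3 replicate 3 and 0.052 without DG replicate 3.

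Neighbours in that order were not told apart by the test. The difference between CA1 and DG had a 95% interval of 0.00 to 0.43 on the log2 scale (edgeR adjusted p = 0.13). That between CA2 and DG had one of -0.41 to 0.05 (adjusted p = 0.218), and that between CA2 and CA3 one of -0.08 to 0.34 (adjusted p = 0.577). Fits with the rat as a block were run on the 12 libraries that were not repeated and on all 16, where the repeated pairs count as separate libraries. The 12 hold only replicates 1 and 3 of CA2 and of DG. CA1 against DG passed in the 16 libraries with the block (edgeR adjusted p = 0.0123) and without it (0.039), but not with the block in the 12 (log2 0.09, adjusted p = 0.56). CA2 against DG passed with the block in the 12 (-0.29, adjusted p = 0.0293) but not in the 16 (0.137). Within the rats, Gria1 was higher in CA1 than in CA3 in 4 of 4, by 0.42 to 0.67 on the log2 scale.

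Gria2 (ENSRNOG00000024019) encodes the subunit whose edited form closes the AMPA channel to calcium. Its row held 62 to 228 reads per library, against 2279 to 8694 for Gria1, so that counting error alone is 12.7% in the smallest library. The count table has no symbols, so that the name Gria2 rests on the identifier alone, and the few reads leave it in doubt that this row measures the whole of Gria2. The length of its gene model was not in the sources used here, and the reason for the few reads was not tested. Gria2 stood at 20.8, 21.0, 21.9 and 22.9 CPM in CA1 and at 16.9, 16.4, 16.7 and 19.4 CPM in CA3. The CA2 values were 16.3, 16.4 and 18.3 CPM and those of DG 11.3, 12.3 and 14.9 CPM, in the order replicate 1, sum of 2 and 4, replicate 3. CA1 lay above and DG below all other libraries, and CA2 and CA3 overlapped.

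Mean Gria2 levels were 21.7 ± 0.947 in CA1, 17.4 ± 1.40 in CA3, 17.0 ± 1.16 in CA2 and 12.8 ± 1.83 CPM in DG. The gene was 1.67-fold higher in CA1 than in DG (log2 0.74, SE 0.13, edgeR adjusted p = 0.000146), and this call held in all 23 alternative fits. Its differences from DG were smaller for CA3 (log2 0.43, SE 0.13, adjusted p = 0.0128) and CA2 (0.40, SE 0.14, adjusted p = 0.0282). Both missed the threshold in the 12 libraries that were not repeated, with the rat as a block (adjusted p = 0.117 for each) and without it (0.101 for CA3 and 0.17 for CA2). The call of CA2 over DG held in 11 of the 23 alternatives. Leaving out CA1 replicate 1 or 3, CA3 replicate 1, DG replicate 1, the sum of DG replicates 2 and 4, or any CA2 library ended it, with edgeR adjusted p between 0.0518 and 0.159. The call of CA3 over DG was lost without DG replicate 1 (0.0849) or the sum of DG replicates 2 and 4 (0.0897). CA1 did not pass the test against CA3 (0.32, 95% interval 0.07 to 0.56, adjusted p = 0.0549) or CA2 (0.34, 0.07 to 0.61, adjusted p = 0.0837), although no libraries overlapped. CA1 against CA3 passed in 6 of the 23 alternatives, with the rat as a block in the 12 libraries (adjusted p = 0.0312) and in the 16 (0.0247), and also without a block, as in the 16 separate libraries (0.0411). CA1 against CA2 passed in the 16 libraries with the block (0.0212) and without it (0.0377), but not with the block in the 12 (0.30, adjusted p = 0.209). CA2 and CA3 did not differ by the test (-0.02, 95% interval -0.29 to 0.24, adjusted p = 0.963).

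Gria3 (ENSRNOG00000007682) encodes the partner of GRIA2 in a further class of AMPA receptors. It stood at 366, 412, 345 and 406 CPM in CA1 and at 191, 217, 195 and 218 CPM in CA3. In CA2 it stood at 235, 272 and 274 CPM and in DG at 266, 311 and 265 CPM, in the order replicate 1, sum of 2 and 4, replicate 3. CA1 was above and CA3 below all other libraries, with CA2 and DG overlapping between them. The means were 382 ± 32.2, 281 ± 26.4, 260.1 ± 21.9 and 205 ± 14.1 CPM in CA1, DG, CA2 and CA3. Gria3 was 1.86-fold higher in CA1 than in CA3 (log2 0.90, SE 0.09, edgeR adjusted p = 3.19e-07), 1.47-fold higher than in CA2 (adjusted p = 0.000596) and 1.36-fold higher than in DG (adjusted p = 0.00201). Its level in CA3 was below that in DG (log2 -0.45, SE 0.10, adjusted p = 0.00118). All these calls held in the 23 alternatives. The difference between CA2 and CA3 (0.34, SE 0.10, adjusted p = 0.0414) was past the threshold in 14 of 23. It was lost without CA1 replicate 4, CA2 replicate 3, the sum of CA2 replicates 2 and 4, or CA3 replicate 1, 3 or 4, with edgeR adjusted p between 0.0517 and 0.186. CA2 against DG gave -0.11 (95% interval -0.34 to 0.12, adjusted p = 0.473).

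Gria4 (ENSRNOG00000006957) encodes the AMPA subunit with fast kinetics that is known from interneurons and from early development. It had the largest fold difference of the members. The CA3 libraries held 57.2, 51.7, 57.5 and 58.3 CPM and the CA1 libraries 193, 147, 167 and 188 CPM. CA2 held 93.2, 116 and 108 CPM and DG 151, 165 and 137 CPM, in the order replicate 1, sum of 2 and 4, replicate 3. CA3 was below CA2, and CA2 below CA1 and DG, with no overlap, while CA1 and DG overlapped. The means were 174 ± 20.9 in CA1, 151 ± 13.8 in DG, 106 ± 11.5 in CA2 and 56.2 ± 3.02 CPM in CA3.

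CA1 exceeded CA3 by 3.09-fold in Gria4 (log2 1.63, SE 0.11, edgeR adjusted p = 5.17e-10), a difference larger in size than that of 91.9% of all genes in the comparison. CA2 exceeded CA3 by 1.88-fold (log2 0.91, SE 0.11, adjusted p = 1.12e-05), and CA1 exceeded CA2 by 1.64-fold (0.71, SE 0.11, adjusted p = 0.000135). DG stood above both CA3 (CA3vsDG -1.43, SE 0.11, adjusted p = 2.2e-09) and CA2 (CA2vsDG -0.51, SE 0.12, adjusted p = 0.00202). These 5 calls held in all 23 alternatives. CA1 against DG did not pass (0.20, 95% interval -0.03 to 0.43, adjusted p = 0.205). Within the rats, CA1 was above CA3 in 4 of 4 by 1.51 to 1.75 on the log2 scale.

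Grin1 (ENSRNOG00000011726) encodes the subunit that every NMDA receptor contains. Its order differed from that of the other subunits. The CA1 libraries held 318, 352, 348 and 342 CPM and the CA3 libraries 309, 399, 353 and 377 CPM. CA2 held 385, 425 and 408 CPM and DG 233, 245 and 292 CPM, in the order replicate 1, sum of 2 and 4, replicate 3. Every DG library was below every other library, and CA1 and CA3 overlapped throughout. The means were 406 ± 20.2 in CA2, 359.5 ± 38.7 in CA3, 340.3 ± 15.2 in CA1 and 257 ± 31.1 CPM in DG.

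DG was the subfield that stood apart for Grin1. The level was 1.58-fold higher in CA2 than in DG (log2 0.66, SE 0.11, edgeR adjusted p = 7.03e-05), 1.40-fold higher in CA3 (0.49, SE 0.10, adjusted p = 0.000815) and 1.33-fold higher in CA1 (0.41, SE 0.10, adjusted p = 0.00496). The first 2 held in all 23 alternatives, and that of CA1 was lost without DG replicate 1 (0.0568) or without the sum of DG replicates 2 and 4 (0.0503). Among the CA subfields none of the 3 contrasts passed. CA1 against CA2 gave -0.25 (95% interval -0.47 to -0.04, adjusted p = 0.112) with no overlap of the libraries, and with the rat as a block it passed at 0.029 in the 12 libraries and 0.00859 in the 16. CA1 against CA3 gave -0.08 (-0.28 to 0.12, adjusted p = 0.603) and CA2 against CA3 0.18 (-0.04 to 0.39, adjusted p = 0.413).

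Grin2a (ENSRNOG00000033942) encodes the GRIN2 subunit with the faster channel closing, whose share rises as the forebrain matures. It stood at 463, 536, 417 and 462 CPM in CA1 and at 185, 295, 217 and 284 CPM in CA3. In CA2 it stood at 238, 350.1 and 294 CPM and in DG at 225, 272 and 244 CPM, in the order replicate 1, sum of 2 and 4, replicate 3. All 4 CA1 libraries were above all others, and CA2, CA3 and DG overlapped one another. The means were 469 ± 49.1 in CA1, 294 ± 56.0 in CA2, 247 ± 23.7 in DG and 245 ± 52.8 CPM in CA3. CA1 was 1.92-fold higher than CA3 (log2 0.94, SE 0.14, edgeR adjusted p = 2.74e-05), 1.90-fold higher than DG (0.93, SE 0.15, adjusted p = 6.54e-05) and 1.59-fold higher than CA2 (0.67, SE 0.15, adjusted p = 0.00353). These 3 calls held in all 23 alternatives.

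The other subfields were not separated in Grin2a. CA2 against CA3 gave 0.26 (95% interval -0.05 to 0.57, edgeR adjusted p = 0.388) and CA2 against DG 0.25 (-0.08 to 0.59, adjusted p = 0.237). Both passed only where all 16 libraries were fitted with the rat as a block (adjusted p = 0.00547 and 0.00711), and not with the block in the 12 libraries. CA3 against DG gave -0.01 (-0.32 to 0.30, adjusted p = 0.967), a difference larger in size than that of 1.39% of all genes in the comparison.

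Grin2b (ENSRNOG00000008766) encodes the GRIN2 subunit with slow channel closing, which is prominent early in life and stays expressed in the adult hippocampus. CA1 libraries held 627, 723, 709.9 and 790.0 CPM and CA3 libraries 290.2, 428, 345 and 446 CPM. CA2 held 406, 620.1 and 547 CPM and DG 425, 579 and 529.9 CPM, in the order replicate 1, sum of 2 and 4, replicate 3. CA1 lay above all other libraries, the lowest by a small margin over the highest of CA2, and CA2, CA3 and DG overlapped. The means were 712 ± 66.9 in CA1, 524 ± 109 in CA2, 511 ± 78.5 in DG and 378 ± 72.9 CPM in CA3.

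Grin2b was 1.89-fold higher in CA1 than in CA3 (log2 0.92, SE 0.14, edgeR adjusted p = 4.39e-05), in all 23 alternatives and in 4 of 4 rats. It was 1.39-fold higher in CA1 than in DG (0.48, SE 0.15, adjusted p = 0.0221). That call was lost without CA1 replicate 3 (0.0525), CA1 replicate 4 (0.064), DG replicate 1 (0.156) or DG replicate 3 (0.057). The level in CA3 was below that in DG (-0.44, SE 0.15, adjusted p = 0.0249). This one was lost without CA3 replicate 1 (0.0583), CA3 replicate 3 (0.0616), the sum of DG replicates 2 and 4 (0.101) or DG replicate 3 (0.0617).

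CA2 held the middle place in Grin2b, and its contrasts with the other CA subfields depended on the fit. CA1 against CA2 gave 0.44 (95% interval 0.12 to 0.76, edgeR adjusted p = 0.059). Its adjusted p was 0.00199 with the rat as a block in the 12 libraries (0.024 without the block) and 5.21e-05 in the 16, and 12 of the 23 alternatives called it, among them those without CA1 replicate 1, the sum of CA2 replicates 2 and 4, CA3 replicate 1 or 4, or DG replicate 1 (0.0187 to 0.0447). CA2 against CA3 gave 0.47 (0.16 to 0.79, adjusted p = 0.0603). Its adjusted p became 0.000784 and 1.69e-06 with the same blocks (0.0122 in the 16 without the block), and 8 of the 23 called it, among them those without CA2 replicate 1, CA3 replicate 2 or CA3 replicate 4 (0.0141 to 0.0493). CA2 against DG gave 0.04 (-0.30 to 0.37, adjusted p = 0.896).

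Ratios of subunits within a library do not depend on the library's size. The 7 ratios computed are ratios of counts plus 0.5, not of molecules, because gene lengths were not used, so only their differences between subfields can be read. Each ratio was tested for any difference among the 4 subfields by an exact permutation test of the F statistic over 4204200 assignments of libraries, and the p-values were adjusted over the 7 ratios. Ratios that share a gene are not independent, and the 4 with Gria2 carry the counting error and the doubt over its row. All 7 passed an adjusted p of 0.05.

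Relative to Gria2, the other AMPA subunits were highest in DG and lowest in CA3. Gria4/Gria2 was 11.8 in DG, 7.96 in CA1, 6.18 in CA2 and 3.23 in CA3, a 3.64-fold range (log2 difference 1.86, exact permutation p = 5.71e-06, adjusted p = 4e-05). The CA3 libraries lay between 2.99 and 3.44 and overlapped no other subfield, while the DG libraries, between 9.20 and 13.3, overlapped CA1. Gria3/Gria2 was 21.8 in DG and 11.8 in CA3, a 1.85-fold range (exact permutation p = 0.000102, adjusted p = 0.000273), and CA3 again overlapped no other subfield. Gria1/Gria2 was 50.6 in DG and 29.8 in CA3, a 1.70-fold range (exact permutation p = 0.00205, adjusted p = 0.0024). In this ratio DG was the subfield that overlapped no other, its libraries lying between 45.2 and 57.4 against 26.3 to 38.3 in the CA subfields.

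**Figure D3:**
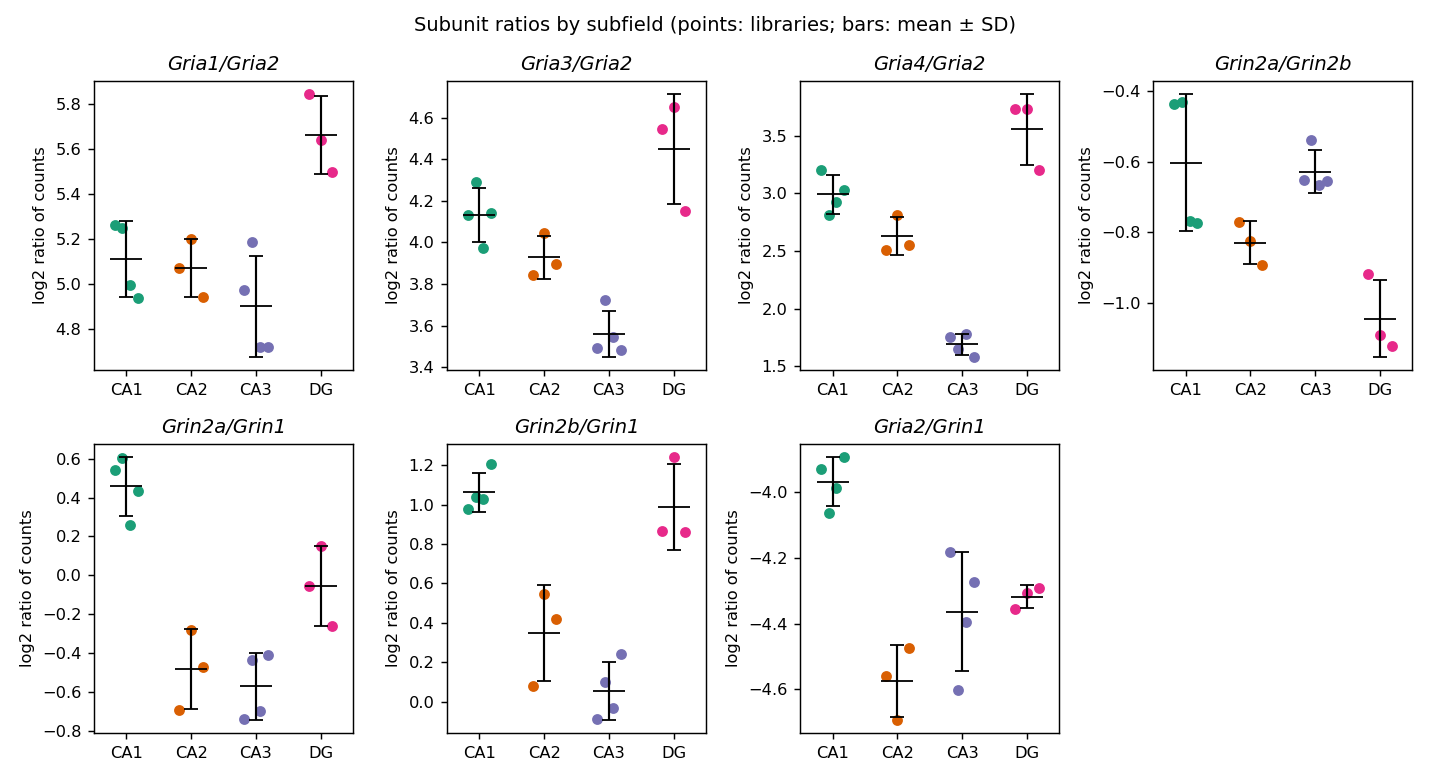
Log2 ratio of counts for 7 pairs of subunit genes in CA1, CA2, CA3 and DG (own scale in each panel, axes not starting at 0). Points are the 14 libraries and bars the mean ± SD. DG is highest and CA3 lowest in the 3 ratios to Gria2, whereas CA1 is highest in both ratios of a Grin2 gene to Grin1.

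Relative to Grin1, both Grin2 genes were highest in CA1 and lowest in CA3. Grin2a/Grin1 was 1.37 in CA1, 0.963 in DG, 0.716 in CA2 and 0.673 in CA3, a 2.04-fold range (exact permutation p = 0.000117, adjusted p = 0.000273). CA1 and DG each overlapped no other subfield, and CA2 and CA3 overlapped each other. Grin2b/Grin1 was 2.09 in CA1, 1.99 in DG, 1.27 in CA2 and 1.04 in CA3, a 2.01-fold range (exact permutation p = 0.000197, adjusted p = 0.000345). Here CA1 and DG overlapped and both lay apart from CA2 and CA3.

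The balance of the 2 GRIN2 genes moved less. Grin2a/Grin2b was 0.658 in CA1, 0.647 in CA3, 0.563 in CA2 and 0.485 in DG, a 1.36-fold range (exact permutation p = 0.00242, adjusted p = 0.00242). The DG libraries lay between 0.460 and 0.529 and every CA library above them. CA1 ranged from 0.585 to 0.741 and overlapped CA2 and CA3, which did not overlap each other. Gria2/Grin1, across the receptor types, was 1.52-fold higher in CA1 than in CA2 (exact permutation p = 0.000413, adjusted p = 0.000578), and CA1 overlapped no other subfield.

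The subunits also differed in how far libraries of 1 subfield lay from each other. In CA3 the coefficient of variation was 21.5% for Grin2a and 19.3% for Grin2b, against 5.37% for Gria4 and 6.87% for Gria3. In CA2 it was 19.0% for Grin2a and 20.7% for Grin2b, against 4.95% for Gria1 and 4.99% for Grin1. CA1 had another order, with 12.05% for Gria4 above 10.47% for Grin2a and 9.39% for Grin2b. In DG Gria2 had 14.3% and Grin1 12.1%, against 9.59% for Grin2a and 15.4% for Grin2b. The deviations of Grin2a and Grin2b from their subfield means went together, with Pearson's r = 0.87 over the 14 libraries, the highest of the 21 pairs of subunits. The next was Gria3 with Grin2a at 0.82, and the lowest was Gria4 with Grin1 at -0.33. These values are a description, noticed in the data, and the points share rats, libraries and the TMM scaling.

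Replicate 1 was the lowest library of each subfield for Grin2b and for Grin1. Grin2b stood there at -0.18, -0.35, -0.36 and -0.25 from the mean log2 level in CA1, CA2, CA3 and DG. For Grin2a replicate 1 was the lowest in CA2 (-0.29), CA3 (-0.38) and DG (-0.13) but not in CA1 (-0.01). The highest CA2 library for both genes was the sum of replicates 2 and 4, at 0.27 and 0.26. In CA2 Wfs1 had the same order as Grin2a and Grin2b, and as Gria1, Gria4 and Grin1, with 53.6 CPM in replicate 1, 86.8 in replicate 3 and 134 in the sum. That sum also held the most of the DG markers Prox1 and C1ql2 in CA2, 9.59 and 5.05 CPM. CA3 replicate 1 had the lowest Wfs1 of its subfield, 8.65 CPM, and replicate 2 the highest, 106 CPM, with Grin2a at 185 and 295 CPM. CA3 replicate 4, however, held 13.8 CPM of Wfs1 and 284 CPM of Grin2a, and it had the most Prox1 of CA3, 19.1 CPM. The part of CA1 or DG tissue in these levels was not tested. Without CA3 replicate 2, CA1 exceeded CA3 by 1.04 in Grin2a and 0.98 in Grin2b on the log2 scale. Without CA3 replicate 4, which held little Wfs1, the values were 1.02 and 1.01. Without the sum of CA2 replicates 2 and 4, CA1 exceeded CA2 by 0.84 in Grin2a and 0.60 in Grin2b. Leaving out a library with a high level of a gene widens such a gap whatever its Wfs1.

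**Figure D4:**
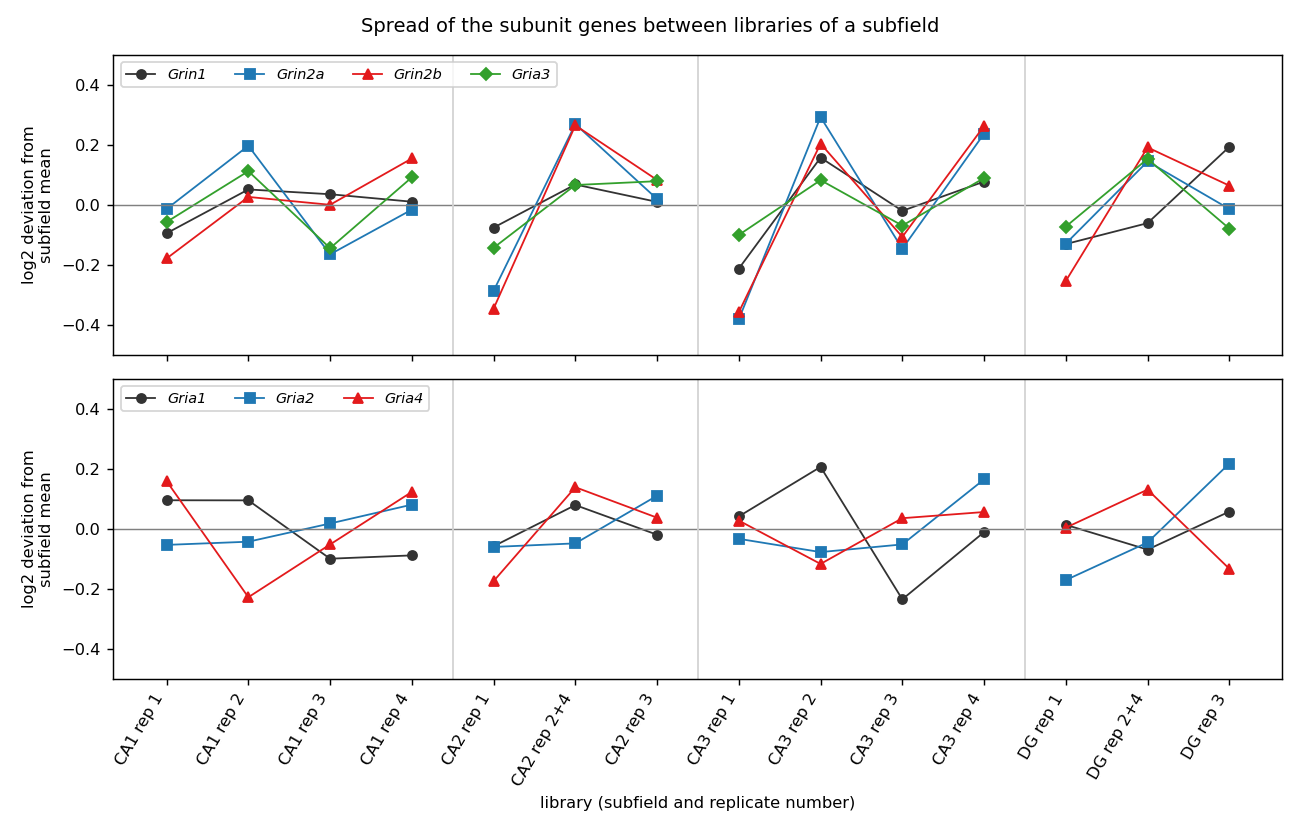
Log2 deviation of each subunit gene from the mean of its subfield, by library, for Grin1, Grin2a, Grin2b and Gria3 (upper panel) and Gria1, Gria2 and Gria4 (lower panel). Lines join the libraries of 1 subfield for reading only. Grin2a and Grin2b run together, at -0.38 and -0.36 in CA3 replicate 1, for example, and at 0.27 and 0.26 in the summed CA2 library.

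The genes most like each subunit were sought by Pearson's r of log2 CPM over the 14 libraries, among 92 genes with a symbol and a mean of at least 10 CPM. Most of these symbols come from genes that the study picked on these libraries as markers of a subfield, and the points fall into 4 subfields, so the values are a description. Gria3 and Grin2b were each other's nearest gene (r = 0.93), and Gria4 was nearest to Gria3 (0.89). Gria1 was nearest to Htr5b (0.88), a serotonin receptor gene that was highest in CA1, and then to Gria3 (0.87). Gria2 was nearest to Pex5l (0.86), which modulates HCN channels. Grin2a was nearest to Arhgap12 (0.95), and Grin1 to Cyp1b1 (0.94), a cytochrome P450 gene at 136 ± 21.7 CPM in CA2 and 1.21 ± 0.542 CPM in DG.

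Of 62 other glutamate receptor, auxiliary and scaffold genes in the lists, 3 could be paired with an identifier and the rest were not analysed here. All 3 were picked by the study on these libraries as subfield markers, so that neither their direction nor the size of their differences is independent. Grik3, a kainate receptor subunit gene, held 19.7 ± 1.996 CPM in DG and 2.86 to 3.74 CPM on average in the CA subfields. It passed the test in the 3 comparisons with DG and in 0 of the 3 others. Grm2, a metabotropic glutamate receptor gene, held 30.6 ± 0.180 CPM in DG and 0.637 to 2.41 CPM on average elsewhere. It was called lower than DG in each CA subfield and higher in CA1 than in CA3 (edgeR adjusted p = 0.00718). Cacng5, which encodes an auxiliary AMPA receptor subunit, held 53.2 ± 8.19 CPM in CA2 and 0.415 to 5.79 CPM on average in the others, and it was called in all 6 comparisons.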

How the data were processed

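The authors captured the layers by LCM, made stranded total RNA libraries, used STAR for alignment (genome build Rnor6), and deposited raw read counts per Ensembl gene. The counter and its use of strand are not given in the sources used here. Deposited tables of the authors' own comparisons hold base means, log2 fold changes, errors, statistics and p-values from DESeq2 and were not used. The members and gene lists were chosen with earlier results of these data known. Symbols of the members come from the rule that named their identifiers, since the count table has none. Those of other genes come from 288 identifiers that a supplement of the study pairs with a symbol.

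Counts of libraries that repeated each other (chi-square per degree of freedom under 1.5) were summed. The test, on genes exceeding 10 counts in all over the 14 libraries, used edgeR 4.0.16 with limma 3.58.1 in R 4.3.3: TMM scaling, 1 coefficient per subfield, quasi-likelihood F-tests, Benjamini-Hochberg adjustment over 17174 genes, threshold 0.05. The SE is the size of the log2 fold change over the square root of F. Ratios were tested by two-sided exact permutation in Python 3.11.15 (numpy 2.4.6, numba 0.67.0), and matplotlib 3.10.9 drew the plots. Besides the members, the rule named up to 3 genes per list with a mean of at least 5 CPM and the largest range over the subfields, all subfield markers (1 of those paired is not reported here), and the 3 genes most like each member.

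Replicate numbers pair the libraries because the descriptions give the 4 subfields of a number the same animal code. Deviations from the subfield means correlated at a median r of 0.24 (-0.05 to 0.53, 14 pairs) within a number and -0.10 (-0.39 to 0.25, 38 pairs) between numbers, over 12632 genes. Since the deviations in a subfield sum to 0, positive values within a number pull those between numbers below 0. The medians are therefore not independent of each other. The repeated libraries have no known rat, so the fit with the rat as a replicate block was run on the 12 others and on all 16. Other alternatives were no filter, filterByExpr, median-of-ratios size factors, DESeq2 1.42.0, 16 separate libraries, 2 subfields only and leaving out each library. A fit to the 12 libraries without the block was added after seeing the data. The scripts were tested on simulated data first. RefSeq's tables paired 0 Ensembl identifiers, and promoters were matched by symbol.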

Additional observations from a re-analysis of the deposited data

Results flagged for a closer look

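Among 28 groups of 4 libraries examined (the levels of the 7 genes and the 7 ratios, in CA1 and in CA3), 2 held a library far from the others, where chance gives about 1 in 20 groups. The number is close to that rate, and the groups share genes and libraries. Gria2 in CA3 was at 19.4 CPM in replicate 4 and at 16.4 to 16.9 CPM in the other libraries, a gap of 0.8299 of the range, just past Dixon's critical value. Without that library CA1 passed the test against CA3 in Gria2 (edgeR adjusted p = 0.038). Log2 Grin2a/Grin2b in CA3 was -0.54 in replicate 2 and -0.67 to -0.65 in the other libraries, a gap of 0.8766 of the range. Replicate 2 is the CA3 library with 106 CPM of Wfs1. The part of CA1 tissue in that ratio was not tested.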

How the results depend on the processing

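Of the 25 called contrasts, 17 were past the threshold in all 23 alternatives, and 8 of the 17 others in none. No contrast changed direction past the threshold. The number of subunits called was 4 in CA1vsCA2 and became 7 with the replicate block in 16 libraries. In CA2vsCA3 it was 2, and became 4 with that block, 1 with 12 libraries unblocked, 1 with 2 subfields only, and 1 to 3 when 1 library was left out: 1 without CA1 replicate 4, CA2 replicate 3, the CA2 sum of replicates 2 and 4, or CA3 replicate 1 or 3, and 3 without CA2 replicate 1 or CA3 replicate 2. In CA1vsDG it was 5, and 3 to 5 when 1 library was left out, 3 being without DG replicate 1. With the replicate block in 12 libraries 5 more contrasts passed and 2 no longer did, of which 1 and 2 also changed in the 12 libraries unblocked. With the block in 16 libraries, where the repeated pairs count as separate libraries, 8 more passed, and 4 of these also did so in the 16 without a block. The fits with the block changed no other call. In the 12 libraries unblocked, 5 calls were lost and 1 was gained. Over all genes, CA1vsCA2 had 2458 calls and 3850 with the block in 16 libraries. CA2vsCA3 had 1313, with 2615 under that block and 861 with 12 libraries unblocked. The cause of these changes was not tested, and the last of these fits also held fewer libraries. All 7 ratios passed in every alternative run for them. DESeq2 also called Grin2b in CA1vsCA2 (adjusted p = 0.0296) and CA2vsCA3 (0.0491). Depth limits Gria2 most, with 62 to 228 reads per library. Fits without 1 library of CA2 or DG leave 2 libraries in that subfield, and the fits to 12 libraries hold 2 in each of them.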
